A study of Homo sapiens with 6 samples.

Results

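The 36 genes described here carry pyruvate into the mitochondrion, turn the tricarboxylic acid (TCA) cycle and return malate to pyruvate. They were taken by gene symbol, a rule that uses no measured value, from 59609 gene names, and all 36 symbols were found. Earlier results of these data were known when the symbols were listed. They comprise the 2 subunits of the mitochondrial pyruvate carrier, 5 genes of the pyruvate dehydrogenase complex, 5 genes of the kinases and phosphatase that switch that complex, pyruvate carboxylase, 15 genes of the oxidative cycle, 4 genes of NADP-linked isocitrate dehydrogenases and mitochondrial carriers, cytosolic malate dehydrogenase and 3 malic enzymes. Of these, 35 reached 1 FPKM (fragments divided by transcript length and by the library's mapped fragments) in at least 1 library and were tested. The malic enzyme gene ME3 did not, with 0 to 0.0274 FPKM across libraries.

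The cells were 95D, a line from human lung cancer that the labels give as wild type, seeded for 24 h in complete medium (DMEM with serum, penicillin and streptomycin). The control group stayed in complete medium. The glucose-deprived and glutamine-deprived groups were then kept for 48 h in DMEM lacking that nutrient. Both deprived media held 10% dialyzed serum, which is not named for the control, so nutrient and serum cannot be told apart in a comparison with the control. They are matched when the deprivations are compared with each other. Values came from 2 control libraries, 2 glucose-deprived libraries and 1 glutamine-deprived library, and the labels do not say whether replicates are separate cultures. The p-values therefore reflect the variation among these libraries alone, possibly technical.

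Pyruvate made by glycolysis crosses the inner mitochondrial membrane through the MPC1-MPC2 carrier. The pyruvate dehydrogenase complex converts it to acetyl-CoA, or pyruvate carboxylase converts it to oxaloacetate. Pyruvate dehydrogenase kinases phosphorylate and inhibit the complex, and a phosphatase reverses this. Citrate synthase joins acetyl-CoA and oxaloacetate, and the oxidative cycle then runs through isocitrate, oxoglutarate, succinyl-CoA, succinate, fumarate and malate. Glutamine carbon enters at oxoglutarate. It can also run backwards through the NADP-linked isocitrate dehydrogenases, IDH1 in the cytosol and IDH2 in mitochondria, to make citrate, which the carrier SLC25A1 moves between mitochondrion and cytosol.

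Inferred depth was 34530000 to 48930000 reads per library. That gives 69.1 to 97.9 reads, with a counting error of 10.1% to 12.03%, to a 2 kb gene at 1 FPKM. Between replicates, log2 levels correlated across 16598 genes with r = 0.991 in control and r = 0.985 in glucose deprivation, and genes are not independent replicates. Vimentin (VIM) lay at 76.2 to 150 FPKM and keratin KRT18 at 16.0 to 21.7 FPKM, whereas KRT19 and the surfactant gene SFTPB were at 0 in every library and the epithelial genes EPCAM and CDH1 at 0.249 FPKM or less. The lung lineage gene NKX2-1 lay at 0.709 to 1.17 FPKM. Of 12 markers of leukocytes, endothelium, fibroblasts, hepatocytes and glia only the collagen gene COL1A1 reached 1 FPKM. The 12 summed to 1.88 and 1.32 FPKM in control, 1.33 FPKM in both glucose-deprived libraries and 2.91 FPKM without glutamine, with the T cell gene CD3E at 0 throughout.

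Levels below are FPKM divided by the scaling factor of each library, in the order of replicates. A fold change is a difference on the scale of log2(FPKM + 1), glucose-deprived or glutamine-deprived over control unless stated, given ± SE, and it understates changes of genes of low level. Adjusted p-values are limma's, over all 16598 genes tested. In RNA from whole cultures, a lower level in every cell and fewer cells making the transcript cannot be told apart.

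Without glucose, most of these genes fell. Of 35 genes tested 24 were lower and 4 higher at an adjusted p under 0.05, and 7 did not pass. Their median log2 fold change was -0.28, against 0.02 for all genes tested. Among all genes tested 28.2% were called lower and 26.5% higher. Abundant genes fell more often: of the 4472 genes whose mean reached 10 FPKM 52.4% were lower and 21.3% higher, with a median of -0.16. The 26 genes of the set with such a mean had 20 lower (76.9%) and 1 higher, with a median of -0.34.

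Without glutamine, 23 of the 35 genes were lower and 2 higher, with 10 that did not pass and a median log2 fold change of -0.41 against 0.04 for all genes. The background was 26.4% of all genes called lower and 24.6% called higher. Of genes whose mean reached 10 FPKM 64.8% were lower and 10.6% higher, with a median of -0.31. The 26 genes of the set with such a mean had 19 lower (73.1%) and 0 higher, which lies near that background. The comparison shares its control libraries with the one above, so the falls in both are not independent of each other.

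How far these genes fell depends on the scaling between libraries. When each library was scaled to its own total, 7 genes of the set stayed lower without glucose (MPC1, MPC2, DLAT, SDHB, SDHD, IDH1 and ME1) and 1 without glutamine (MPC1). That scaling moved the median of all genes to 0.11 and 0.30, and 27 of the 35 genes lay below that median in each comparison, against 28 and 29 with the scaling used here. A scaling factor divides every gene of a library alike, so this count could hardly change and is no support for the falls. The library totals are set largely by small non-coding RNAs, since the 10 most abundant genes held 55.2% to 61.0% of each FPKM sum. The 13 mitochondrially encoded mRNAs summed to 4459 and 4184 FPKM in control, 3740 and 3375 FPKM without glucose and 6951 FPKM without glutamine, and the nuclear RNA NEAT1 lay at 4.93 and 5.89, 21.2 and 17.0, and 24.4 FPKM in the same order. The part of these shifts in the results was not tested.

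**Figure D1:**
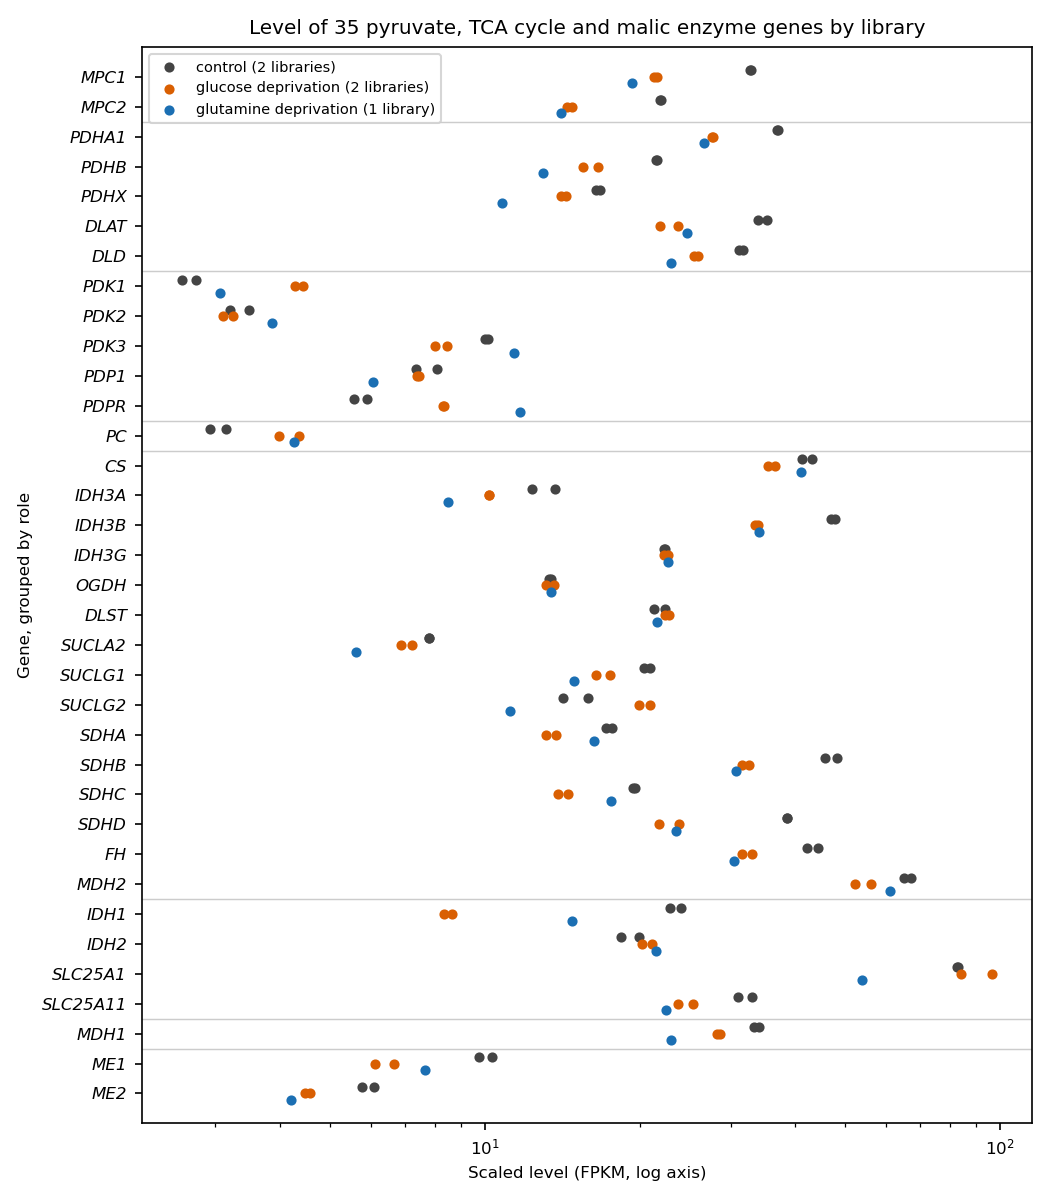
Scaled level in FPKM (log axis) of the 35 tested genes, grouped by role between grey lines, with 1 point per library for control (dark), glucose deprivation (orange) and glutamine deprivation (blue). The carrier and the pyruvate dehydrogenase complex sit to the left of their control points in all 3 deprived libraries, and IDH1 has the widest gap between control (22.8 and 24.0) and glucose deprivation (8.32 and 8.63).

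The sequences of 4 promoters are shown because these genes carried the widest or most divergent changes: IDH1 fell furthest without glucose, SDHD fell in both media, and SUCLG2 and SLC25A1 had the widest differences between the media in the other direction. Each is the 250 bases before the RefSeq transcription start on GRCh38.p14, written 5′ to 3′ on the strand of the gene. Capitals mark matches to a motif on either strand. The windows lie at chr2:208255072-208255321 (minus strand) for IDH1, chr11:112086623-112086872 (plus strand) for SDHD, chr22:19178737-19178986 (minus strand) for SLC25A1 and chr3:67654613-67654862 (minus strand) for SUCLG2. RefSeq gives IDH1 2 windows, of which this is the one nearer to the outermost GENCODE start, 11003 bases downstream of it. The last 100 bases of the SDHD window and the last 94 of the SLC25A1 window lie within the GENCODE gene.
IDH1: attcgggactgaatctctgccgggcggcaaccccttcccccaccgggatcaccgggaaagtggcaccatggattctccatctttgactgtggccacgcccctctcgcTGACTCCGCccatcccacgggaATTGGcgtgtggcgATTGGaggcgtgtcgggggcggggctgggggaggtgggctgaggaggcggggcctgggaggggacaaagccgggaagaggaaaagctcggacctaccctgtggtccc
SDHD: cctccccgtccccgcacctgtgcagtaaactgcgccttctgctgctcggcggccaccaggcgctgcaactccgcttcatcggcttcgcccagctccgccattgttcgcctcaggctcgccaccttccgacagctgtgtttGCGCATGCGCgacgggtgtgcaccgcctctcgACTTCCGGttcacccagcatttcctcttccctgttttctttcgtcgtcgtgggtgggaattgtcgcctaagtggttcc
SLC25A1: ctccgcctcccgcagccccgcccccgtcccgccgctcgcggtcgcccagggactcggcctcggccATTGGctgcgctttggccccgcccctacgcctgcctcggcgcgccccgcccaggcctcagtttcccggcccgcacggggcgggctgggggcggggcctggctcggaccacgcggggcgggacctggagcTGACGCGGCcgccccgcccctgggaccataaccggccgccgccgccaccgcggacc
SUCLG2: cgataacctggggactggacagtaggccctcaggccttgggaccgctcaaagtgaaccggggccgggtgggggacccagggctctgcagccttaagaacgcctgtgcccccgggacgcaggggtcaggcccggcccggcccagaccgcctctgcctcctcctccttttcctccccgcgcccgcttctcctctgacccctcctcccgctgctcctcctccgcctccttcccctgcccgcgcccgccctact

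The capitals in IDH1 are an antioxidant response element core, TGACTCCGC, 143 to 135 bases before the start, and 2 reversed CCAAT boxes. SDHD holds a match to the palindromic NRF1 motif, GCGCATGCGC, 110 to 101 bases before the start and a reversed ETS motif, ACTTCCGG, 78 to 71 bases before it. The SLC25A1 window holds another antioxidant response element core, TGACGCGGC, and a reversed CCAAT box, and the SUCLG2 window none of the 7 motifs searched. Across the 47 windows of the 33 genes of the set that RefSeq's table holds, 14.9% matched the NRF1 motif, against 5.08% of all 35116 windows. The ETS motif (CCGGAAGT) was in 8.51% against 3.42%, CCAAT in 46.8% against 32.0% and the E-box CACGTG in 10.6% against 6.35%. The antioxidant response core (TGACNNNGC) was as frequent in the set as elsewhere, 10.6% against 10.9%. TGATGNAA, bound by ATF4 with C/EBP factors, was in 2.13% against 3.14%, and the sterol regulatory element (TCACNCCAC) was in 0 of 47 windows against 0.883%. A match describes the letters of the window and no more.

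The carrier that admits pyruvate fell in both deprivations. MPC1 (chromosome 6, 166364919 to 166383013, GENCODE 29) lay at 32.7 and 32.9 FPKM in control, 21.3 and 21.6 FPKM without glucose and 19.3 FPKM without glutamine. All 3 deprived libraries were below both controls, with changes of -0.59 ± 0.05 without glucose (adjusted p = 4.28e-05) and -0.74 ± 0.06 without glutamine (adjusted p = 6.13e-05). Its partner MPC2 went from 22.02 and 21.8 FPKM to 14.4 and 14.7 FPKM without glucose (-0.56 ± 0.05, adjusted p = 5.24e-05) and to 14.0 FPKM without glutamine (-0.61 ± 0.06, adjusted p = 0.000112). The 2 subunits form a heterodimer, and MPC1 held 57.9% to 60.1% of their summed FPKM in every library. On the genome, 22.5% of the exon length of MPC2 overlaps the opposite-strand gene DCAF6, at 10.9 to 17.1 FPKM, and the strand setting of the authors' counting was not given in the sources used here.

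All 5 genes of the pyruvate dehydrogenase complex were also called lower in both deprivations. Of genes whose mean reached 10 FPKM 52.4% were lower without glucose and 64.8% without glutamine. The decarboxylase is made of PDHA1 and PDHB. PDHA1 lay at 37.1 and 37.0 FPKM in control, 27.7 and 27.6 FPKM without glucose (-0.41 ± 0.04, adjusted p = 0.000103) and 26.7 FPKM without glutamine (-0.46 ± 0.05, adjusted p = 0.000181). PDHB went from 21.6 and 21.5 FPKM to 15.5 and 16.6 FPKM (-0.41 ± 0.05, adjusted p = 0.000256) and to 12.97 FPKM (-0.69 ± 0.06, adjusted p = 7.98e-05). DLAT encodes the acetyltransferase core. It stood at 33.9 and 35.3 FPKM in control, 21.9 and 23.7 FPKM without glucose (-0.58 ± 0.05, adjusted p = 6.52e-05) and 24.7 FPKM without glutamine (-0.47 ± 0.06, adjusted p = 0.000539). PDHX, which tethers the dihydrolipoyl dehydrogenase to that core, had the smallest fall of the 5 without glucose, from 16.7 and 16.4 to 14.1 and 14.3 FPKM (-0.21 ± 0.04, adjusted p = 0.00513), and lay at 10.8 FPKM without glutamine (-0.58 ± 0.05, adjusted p = 0.000123). DLD, the dihydrolipoyl dehydrogenase that the oxoglutarate dehydrogenase complex also uses, changed by -0.28 ± 0.04 without glucose and -0.43 ± 0.05 without glutamine. Summed over the 5 genes, the complex lay at 141 and 142 FPKM in control, 105 and 108 FPKM without glucose and 98.2 FPKM without glutamine. Under scaling to the total PDHA1 (-0.30), PDHB (-0.30) and DLD (-0.17) did not pass without glucose, and none of the genes did without glutamine. DLAT and DLD without glutamine also did not pass when scaled to genes of at least 10 FPKM. The fall of PDHX without glucose had an adjusted p of 0.059 without control replicate 1 and also did not pass under upper-quartile scaling, scaling to the total (-0.10, adjusted p = 0.641) or scaling to genes of at least 10 FPKM, an alternative chosen after seeing the data (-0.045, adjusted p = 0.399).

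Of the genes that set the activity of the complex, the kinases PDK1 and PDK3 moved in opposite directions without glucose. PDK1, a kinase gene that is a target of hypoxia-inducible factor, rose without glucose. It lay at 2.75 and 2.58 FPKM in control, 4.44 and 4.27 FPKM without glucose (0.55 ± 0.05, adjusted p = 7.24e-05) and 3.07 FPKM without glutamine (0.15 ± 0.06, adjusted p = 0.0671). PDK3, the most abundant of the 3 by FPKM, fell without glucose, with 10.0 and 10.1 FPKM in control, 8.44 and 7.99 FPKM without glucose (-0.26 ± 0.05, adjusted p = 0.00231) and 11.4 FPKM without glutamine (0.16 ± 0.06, adjusted p = 0.0505). PDK2 overlapped its controls without glucose, at 3.48 and 3.20 against 3.11 and 3.24 FPKM, and lay at 3.86 FPKM without glutamine, and neither difference passed. As a share of the FPKM of the 3 kinases, PDK1 made up 16.9% and 16.2% in control, 27.8% and 27.6% without glucose and 16.8% without glutamine. PDK4, a further kinase gene and no member of the set, stayed at 0.0944 to 0.435 FPKM and was not tested. The fall of PDK3 without glucose did not pass under scaling to the total (-0.16, adjusted p = 0.423). It also did not pass under scaling to genes of at least 10 FPKM (-0.11, adjusted p = 0.0944). Without glutamine PDK3 was called higher in 8 of 15 alternatives, and PDK1 and PDK2 in 4 each.

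Of the phosphatase subunits, PDPR and PDP2, which is no member of the set, rose in both media. PDPR, the regulatory subunit of the phosphatase that reactivates the complex, rose the most of the set without glutamine. It lay at 5.58 and 5.90 FPKM in control, 8.28 and 8.33 FPKM without glucose (0.47 ± 0.04, adjusted p = 0.000104) and 11.7 FPKM without glutamine (0.92 ± 0.05, adjusted p = 3.38e-05). A pseudogene copy, PDPR2P, could share its reads, so its level is uncertain. The catalytic subunit PDP2 lay at 2.51 and 2.34 FPKM in control, 2.97 and 2.72 FPKM without glucose and 3.53 FPKM without glutamine. It rose by 0.17 ± 0.06 without glucose (adjusted p = 0.0475) and by 0.40 ± 0.07 without glutamine. The former did not pass without control replicate 1 or 2, without glucose deprivation replicate 1 or under scaling to the total. The catalytic subunit PDP1 overlapped its controls without glucose (8.09 and 7.34 against 7.46 and 7.39 FPKM) and lay at 6.06 FPKM without glutamine (-0.30 ± 0.07, adjusted p = 0.00726). That fall passed in 9 of 15 alternatives. It did not on the values as deposited, under upper-quartile scaling, scaling to the total (-0.024, adjusted p = 0.931) or scaling to genes of at least 10 FPKM (-0.020, adjusted p = 0.815), with no filter, or without control replicate 1 (adjusted p = 0.0539). Pyruvate carboxylase (PC), the other route of pyruvate into the cycle, rose in both media. It went from 2.93 and 3.14 FPKM to 3.99 and 4.36 FPKM without glucose (0.36 ± 0.06, adjusted p = 0.00189) and to 4.27 FPKM without glutamine (0.39 ± 0.08, adjusted p = 0.004, and 0.0524 without control replicate 1).

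**Figure D2:**
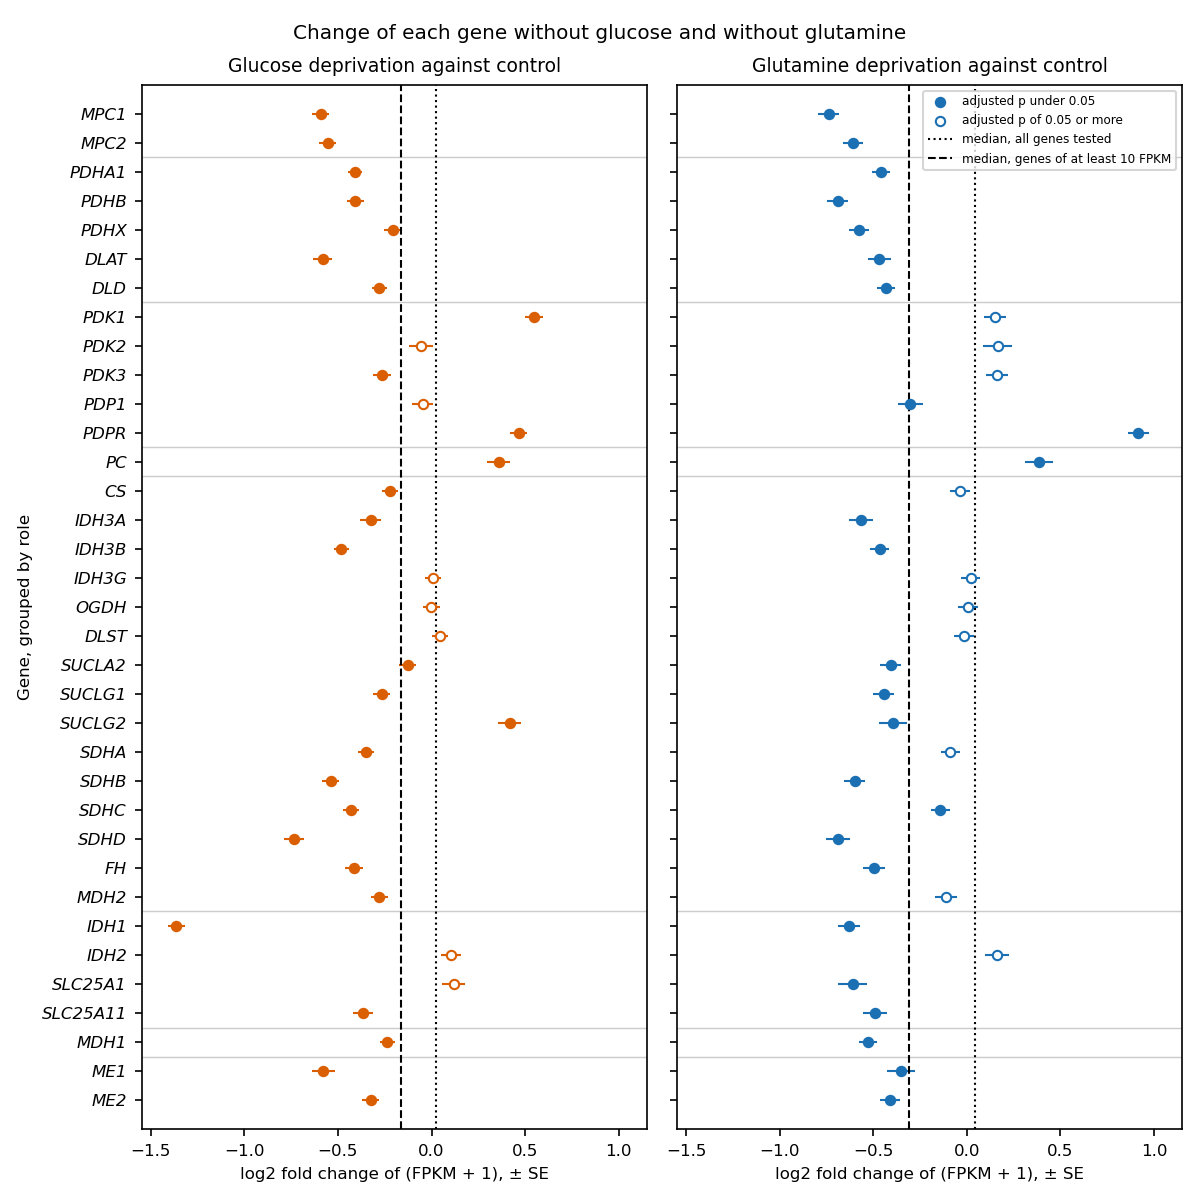
Log2 fold change of (FPKM + 1) ± SE for each tested gene without glucose (left) and without glutamine (right), filled where the adjusted p was under 0.05; dotted and dashed lines are the medians of all genes and of genes whose mean reached 10 FPKM. Most genes lie to the left of both lines, while PDK1, PDPR, PC and SUCLG2 without glucose and PDPR and PC without glutamine are the filled points to the right of both; open points also lie there.

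Of the 15 genes of the oxidative cycle 11 (73.3%) were lower, 1 higher and 3 did not pass without glucose (median -0.28), against 52.4% of genes whose mean reached 10 FPKM called lower. Without glutamine 9 (60.0%) were lower, 0 higher and 6 did not pass (median -0.39), a share near and below the 64.8% of such genes. Summed, they gave 430 and 441 FPKM in control, 348 and 356 FPKM without glucose and 353 FPKM without glutamine. Citrate synthase (CS), the entry enzyme, lay at 41.3 and 43.1 FPKM in control, 35.4 and 36.6 FPKM without glucose (-0.22 ± 0.04, adjusted p = 0.00313) and 41.1 FPKM without glutamine (-0.04 ± 0.05, adjusted p = 0.582). Its fall without glucose did not pass without control replicate 2 (-0.21), under scaling to the total (-0.11) or under scaling to genes of at least 10 FPKM (-0.055). Of its exon length 3.44% overlaps a same-strand gene at 30.5 to 43.1 FPKM, AC073896.1.

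Of the 3 subunits of NAD-linked isocitrate dehydrogenase, 2 fell in both media. The catalytic subunit IDH3A lay at 12.4 and 13.7 FPKM in control, 10.2 FPKM in both libraries without glucose (-0.33 ± 0.05, adjusted p = 0.00157) and 8.47 FPKM without glutamine (-0.57 ± 0.07, adjusted p = 0.000322). IDH3B, a regulatory subunit, went from 47.0 and 47.8 FPKM to 33.4 and 33.9 FPKM (-0.48 ± 0.04, adjusted p = 5.86e-05) and to 34.0 FPKM (-0.47 ± 0.05, adjusted p = 0.00021). The other regulatory subunit, IDH3G, lay at 22.3 to 22.7 FPKM in all 5 libraries, and its differences of 0.01 ± 0.04 and 0.02 ± 0.05 did not pass. The next step is the oxoglutarate dehydrogenase complex, where glutamine carbon enters. OGDH, its decarboxylase, ranged from 13.1 to 13.6 FPKM and DLST, its succinyltransferase, from 21.3 to 22.8 FPKM, with the groups overlapping and no difference past the test. Without glucose the falls of IDH3A (-0.22) and IDH3B (-0.37) did not pass under scaling to the total, nor that of IDH3A with no filter. Under the scaling to genes of at least 10 FPKM, IDH3G, OGDH and DLST were called higher in both deprivations, and CS (0.28) and MDH2 (0.21) without glutamine.

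Succinyl-CoA ligase pairs SUCLG1 with either SUCLA2, which makes the enzyme specific for ADP, or SUCLG2, which makes it specific for GDP. SUCLG2 (chromosome 3, 67360460 to 67654614) was the only gene of the set that passed in opposite directions in the 2 deprivations. It lay at 14.2 and 15.9 FPKM in control, 20.9 and 19.9 FPKM without glucose (0.42 ± 0.06, adjusted p = 0.000805) and 11.2 FPKM without glutamine (-0.39 ± 0.07, adjusted p = 0.00329). Its rise without glucose had an adjusted p of 0.0521 when no filter on low values was used. Its fall without glutamine did not pass in 3 of 15 alternatives. These were scaling to the total (-0.10), scaling to genes of at least 10 FPKM and no filter on low values. SUCLA2 went from 7.81 and 7.79 FPKM to 6.89 and 7.22 FPKM without glucose (-0.13 ± 0.04, adjusted p = 0.0423) and to 5.63 FPKM without glutamine (-0.41 ± 0.05, adjusted p = 0.000618). The first of these passed in 6 of 16 alternatives. It did not pass without control replicate 1 (-0.14), control replicate 2 (-0.14) or glucose deprivation replicate 1 (-0.09). Nor did it on the values as deposited or under upper-quartile scaling. The shared subunit SUCLG1 fell from 20.3 and 20.9 FPKM to 17.5 and 16.4 FPKM (-0.27 ± 0.05, adjusted p = 0.00214) and to 14.9 FPKM (-0.45 ± 0.06, adjusted p = 0.000541). Neither fall of SUCLG1 passed under scaling to the total or scaling to genes of at least 10 FPKM. As a share of SUCLA2 and SUCLG2 together, SUCLA2 made up 35.5% and 32.9% in control, 24.8% and 26.6% without glucose and 33.5% without glutamine.

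Succinate dehydrogenase, which also serves as respiratory complex II, has 4 subunits, and all 4 fell without glucose. Of genes whose mean reached 10 FPKM 52.4% were lower in that comparison. Under scaling to the total the falls of SDHA (-0.24) and SDHC (-0.32) without glucose did not pass. SDHD, a membrane anchor (chromosome 11, 112086773 to 112120013), stood at 38.6 FPKM in both controls, 21.7 and 23.8 FPKM without glucose (-0.74 ± 0.05, adjusted p = 2.92e-05) and 23.5 FPKM without glutamine (-0.69 ± 0.06, adjusted p = 0.000117). The iron-sulphur subunit SDHB went from 45.8 and 48.3 FPKM to 31.6 and 32.6 FPKM (-0.54 ± 0.05, adjusted p = 6.17e-05) and to 30.7 FPKM (-0.60 ± 0.06, adjusted p = 0.000122). The other pair stayed closer to control without glutamine. The second anchor SDHC lay at 19.6 and 19.4 FPKM in control, 14.5 and 13.9 FPKM without glucose (-0.43 ± 0.04, adjusted p = 0.000105) and 17.6 FPKM without glutamine. The latter difference was -0.14 ± 0.05 (adjusted p = 0.0452). It was -0.15 without control replicate 1 and -0.16 without control replicate 2, and did not pass in either case. It changed sign on the values as deposited (0.01), and under scaling to genes of at least 10 FPKM SDHC was called higher (0.17). The catalytic flavoprotein subunit SDHA lay at 17.2 and 17.6 FPKM, 13.8 and 13.1 FPKM (-0.35 ± 0.04, adjusted p = 0.000353) and 16.3 FPKM (-0.09 ± 0.05, adjusted p = 0.198). SDHA has pseudogene copies, SDHAP1, SDHAP2 and SDHAP3, that could take a part of its reads and lay at 2.14 to 7.69 FPKM.

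Fumarase (FH) fell from 42.3 and 44.4 FPKM to 31.5 and 33.0 FPKM without glucose (-0.41 ± 0.05, adjusted p = 0.000246) and to 30.4 FPKM without glutamine (-0.50 ± 0.06, adjusted p = 0.000318). The mitochondrial malate dehydrogenase MDH2 lay at 67.0 and 65.1 FPKM, 52.4 and 56.2 FPKM (-0.28 ± 0.05, adjusted p = 0.00163) and 61.1 FPKM (-0.11 ± 0.06, adjusted p = 0.143). Its cytosolic counterpart MDH1, a part of the malate-aspartate shuttle, lay at 34.0 and 33.3 FPKM, 28.6 and 28.2 FPKM (-0.24 ± 0.04, adjusted p = 0.00156) and 23.0 FPKM (-0.53 ± 0.05, adjusted p = 0.000112). MDH1 therefore made up 33.7% and 33.8% of the FPKM of the pair in control, 35.3% and 33.4% without glucose and 27.3% without glutamine. Without glucose the falls of FH (-0.30), MDH1 (-0.13) and MDH2 (-0.17) did not pass under scaling to the total. Those of MDH1 and MDH2 also did not pass under scaling to genes of at least 10 FPKM, nor that of MDH2 with no filter.

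Of the genes of the reductive route, IDH1 showed the widest change. This cytosolic, NADP-linked isocitrate dehydrogenase (chromosome 2, 208236227 to 208266074) lay at 22.8 and 24.0 FPKM in control, 8.32 and 8.63 FPKM without glucose and 14.8 FPKM without glutamine. All 3 deprived libraries were below both controls, and those without glucose were the lowest. On the log2 scale it fell by 1.37 ± 0.05 without glucose (adjusted p = 2.59e-06), a 2.58-fold decrease of FPKM + 1, and by 0.63 ± 0.06 without glutamine (adjusted p = 0.000105). The first of these ranged from -1.45 to -1.20 over the alternatives and passed in all of them, and the second did not pass under scaling to the total (-0.33, adjusted p = 0.156). IDH2, the mitochondrial NADP-linked enzyme, lay at 19.9 and 18.4 FPKM in control, 20.2 and 21.1 FPKM without glucose and 21.5 FPKM without glutamine. Its differences of 0.11 ± 0.05 and 0.16 ± 0.07 did not pass (adjusted p = 0.128 and 0.0731). IDH2 was called higher in 3 of 16 alternatives without glucose and in 4 of 15 without glutamine. IDH1 made up 53.4% and 56.6% of the FPKM of the pair in control, 29.1% and 29.02% without glucose and 40.7% without glutamine.

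Of the mitochondrial carriers of this route, SLC25A1 fell without glutamine and SLC25A11 in both media. SLC25A1, the citrate carrier and the most abundant gene of the set by FPKM in control (chromosome 22, 19175575 to 19178830), lay at 82.4 and 83.0 FPKM in control, 84.0 and 96.3 FPKM without glucose and 53.9 FPKM without glutamine. It did not pass without glucose (0.12 ± 0.06, adjusted p = 0.148), although it was called higher in 4 of 16 alternatives. It gave 0.22 without glucose deprivation replicate 1 and 0.29 under scaling to genes of at least 10 FPKM, both called higher. It fell by 0.61 ± 0.08 without glutamine (adjusted p = 0.000464), which did not pass under scaling to the total (-0.29, adjusted p = 0.234). SLC25A11, which exchanges oxoglutarate for malate, went from 32.9 and 30.9 FPKM to 23.8 and 25.4 FPKM without glucose (-0.37 ± 0.05, adjusted p = 0.00075) and to 22.4 FPKM without glutamine (-0.49 ± 0.06, adjusted p = 0.000546).

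Both detected malic enzymes fell, ME1 without glutamine in 9 of 15 alternatives only. ME1, the cytosolic enzyme that makes NADPH, lay at 9.74 and 10.3 FPKM in control, 6.67 and 6.12 FPKM without glucose (-0.58 ± 0.06, adjusted p = 0.000163) and 7.65 FPKM without glutamine (-0.35 ± 0.07, adjusted p = 0.00549). The latter did not pass on the values as deposited, under upper-quartile scaling, scaling to the total (-0.064, adjusted p = 0.795) or scaling to genes of at least 10 FPKM, with no filter, or without control replicate 2 (adjusted p = 0.0581). The mitochondrial ME2, which uses mainly NAD, went from 5.78 and 6.08 FPKM to 4.57 and 4.48 FPKM (-0.33 ± 0.04, adjusted p = 0.00056) and to 4.21 FPKM (-0.41 ± 0.05, adjusted p = 0.00055). Neither fall of ME2 passed under scaling to the total, nor did that without glutamine under scaling to genes of at least 10 FPKM. The NADP-linked mitochondrial ME3 was listed at 0 in control replicate 1 and at 0.0274 FPKM at most. ME1 made up 62.8% of the malic enzyme FPKM in both controls, 59.3% and 57.7% without glucose and 64.5% without glutamine.

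**Figure D3:**
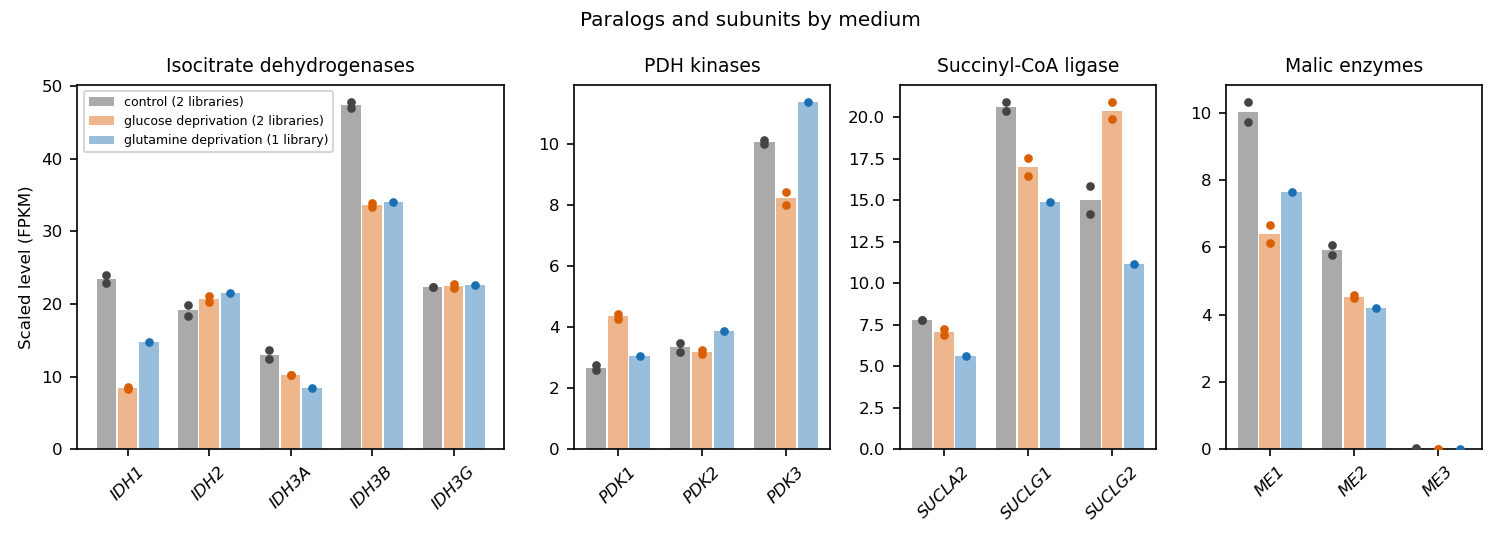
Scaled level in FPKM (linear axes from 0, a scale of its own for each panel) of isocitrate dehydrogenases, pyruvate dehydrogenase (PDH) kinases, succinyl-CoA ligase subunits and malic enzymes, with bars for the group mean and 1 point per library. IDH1 falls to 8.32 and 8.63 FPKM without glucose beside an IDH2 of 20.2 and 21.1, and SUCLG2 is above control without glucose and below it without glutamine.

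The media were then compared with each other, glutamine-deprived over glucose-deprived, which asks where the 2 shortages differ with dialyzed serum on both sides. Of the 35 genes 9 were higher without glutamine, 11 lower and 15 did not pass, with a median log2 difference of -0.05 against 0.01 for all genes. The background was 22.4% of all genes called higher and 22% called lower, and the shares of the set were 25.7% and 31.4%. Of genes whose mean reached 10 FPKM 18.1% were higher and 43.8% lower, and of the 26 such genes of the set 5 (19.2%) and 8 (30.8%). The shares of the set thus lay above those of all genes. Among genes whose mean reached 10 FPKM its share called lower lay below the background, and its share called higher near it.

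The direct difference of 5 genes passed in every alternative run. IDH1 was 0.73 ± 0.06 higher without glutamine than without glucose (adjusted p = 0.000107), PDPR 0.45 ± 0.05 higher (adjusted p = 0.000565) and PDK3 0.43 ± 0.06 higher (adjusted p = 0.00101). SUCLG2 was lower, with a difference of -0.81 ± 0.07 (adjusted p = 0.000201), as was SLC25A1, with -0.73 ± 0.08 (adjusted p = 0.000351). Over the alternatives SUCLG2 ranged from -0.86 to -0.62, SLC25A1 from -0.83 to -0.53 and IDH1 from 0.70 to 0.93. In each of the 5 the lone glutamine-deprived library lay outside the range of both glucose-deprived libraries.

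Genes lower without glutamine than without glucose were PDK1, with a difference of -0.40 ± 0.06 (adjusted p = 0.00139), PDHX with -0.37 ± 0.05 (adjusted p = 0.00132), MDH1 with -0.29 ± 0.05 (adjusted p = 0.00224) and SUCLA2 with -0.28 ± 0.05 (adjusted p = 0.00474). SDHC was 0.29 ± 0.05 higher (adjusted p = 0.00281) and SDHA 0.26 ± 0.05 higher (adjusted p = 0.00542). These 6 did not pass under scaling to the total alone among the alternatives. PDHB was also lower, with -0.28 ± 0.06 (adjusted p = 0.0055). That difference did not pass under scaling to the total (-0.09), under scaling to genes of at least 10 FPKM or with no filter. The other 8 genes past the test, PDK2 (0.22), ME1 (0.23), CS (0.19), MDH2 (0.17), DLD (-0.15), SUCLG1 (-0.18), IDH3A (-0.24) and PDP1 (-0.26), each lost the call without at least 1 replicate. Their adjusted p-values then lay between 0.06 for DLD without glucose deprivation replicate 1 and 0.137 for PDK2 without the same library. DLAT (0.11), MPC1 (-0.15), MPC2 (-0.05), PDHA1 (-0.05), IDH3B (0.02), SDHB (-0.06), SDHD (0.05), FH (-0.08), ME2 (-0.09) and SLC25A11 (-0.13) fell against control in both media, and their direct difference did not pass, which does not show that the media act alike on them.

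**Figure D4:**
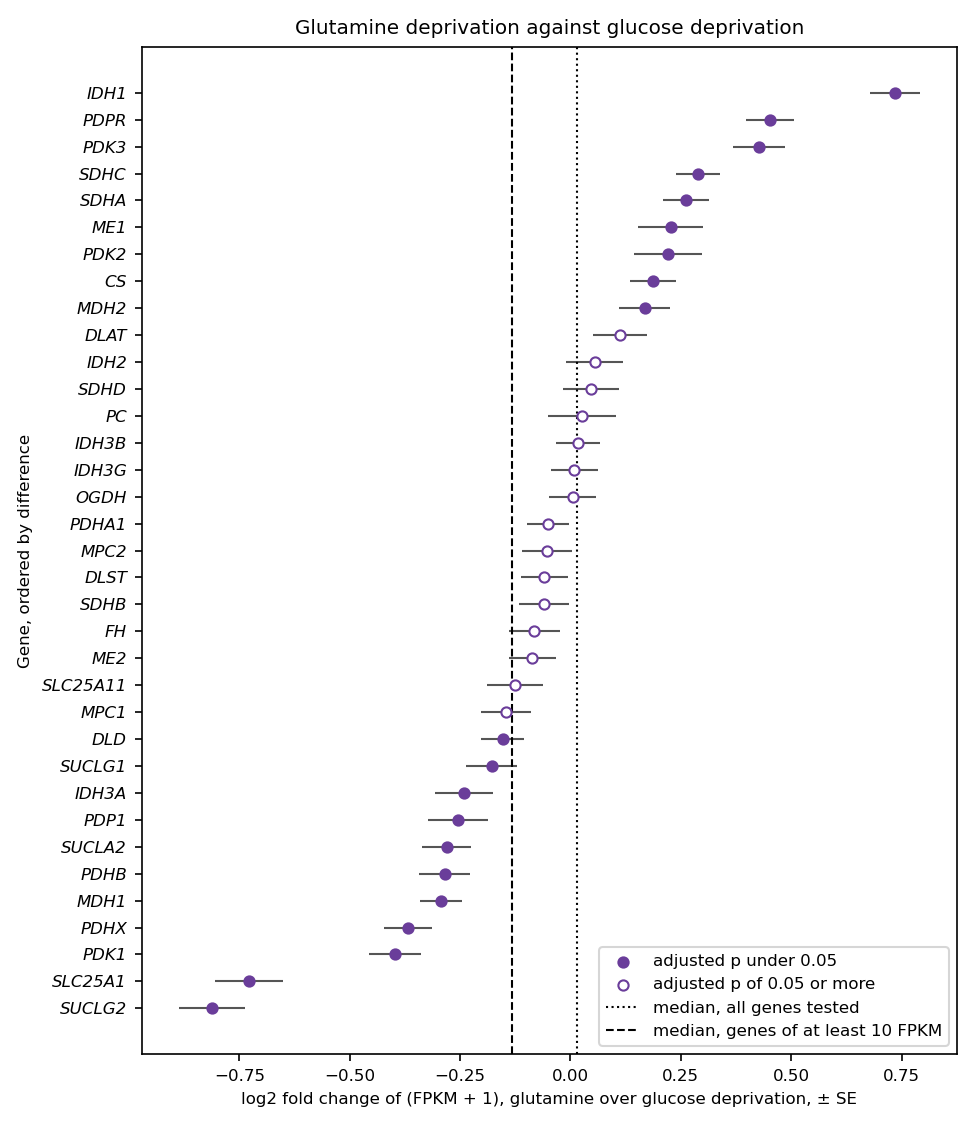
Log2 difference of (FPKM + 1) ± SE between glutamine and glucose deprivation for the 35 tested genes, ordered by size and filled where the adjusted p was under 0.05; dotted and dashed lines are the medians of all genes and of genes whose mean reached 10 FPKM. IDH1 (0.73) stands at the upper end and SUCLG2 (-0.81) and SLC25A1 (-0.73) at the lower end.

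Of 29 other genes of the pathway, chosen with earlier results of these data known, 28 were tested. Without glucose 7 were higher and 14 lower (50.0%, against 28.2% of all genes and 52.4% of genes whose mean reached 10 FPKM). Without glutamine 4 were higher and 13 lower (46.4%, against 26.4% and 64.8%). In the direct comparison 10 were higher (35.7%, against 22.4% and 18.1%) and 7 lower (25.0%, against 22% and 43.8%). PCK2, the mitochondrial phosphoenolpyruvate carboxykinase, rose the most, from 7.90 and 6.23 FPKM to 18.5 and 20.9 FPKM without glucose (1.36 ± 0.10, adjusted p = 3.13e-05) and to 17.0 FPKM without glutamine (1.16 ± 0.12, adjusted p = 0.000181). SDHAF3, an assembly factor of succinate dehydrogenase, went from 18.1 and 18.6 FPKM to 9.20 and 9.97 FPKM (-0.87 ± 0.06, adjusted p = 2.12e-05) and to 9.65 FPKM (-0.86 ± 0.07, adjusted p = 7.28e-05). The lactate dehydrogenase genes also fell. LDHA lay at 156 and 157 FPKM in control, 94.5 and 87.7 FPKM without glucose (-0.78 ± 0.05, adjusted p = 1.95e-05) and 105 FPKM without glutamine, and LDHB at 393 and 387 FPKM, 286 and 287 FPKM, and 236 FPKM without glutamine (-0.72 ± 0.05, adjusted p = 5.3e-05). The lactate and pyruvate transporter SLC16A1 lay at 103 and 104 FPKM, 76.5 and 74.6 FPKM, and 60.9 FPKM in the same order (-0.76 ± 0.05 without glutamine, adjusted p = 3.98e-05).

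ACLY, which cleaves exported citrate in the cytosol, lay at 131 and 128 FPKM in control, 84.8 and 84.1 FPKM without glucose (-0.61 ± 0.04, adjusted p = 2.33e-05) and 114 FPKM without glutamine. The direct difference was 0.43 ± 0.05 (adjusted p = 0.000514). The dicarboxylate carrier SLC25A10 went from 19.1 and 18.7 FPKM to 9.94 and 10.3 FPKM without glucose (-0.84 ± 0.05, adjusted p = 1.43e-05), stood at 13.6 FPKM without glutamine and lay 0.39 ± 0.06 higher without glutamine than without glucose (adjusted p = 0.00152). The aspartate-glutamate carrier SLC25A13 went the other way, with 24.2 and 26.1 FPKM in control, 20.6 and 20.5 FPKM without glucose and 14.2 FPKM without glutamine (-0.78 ± 0.06, adjusted p = 6.29e-05), a direct difference of -0.51 ± 0.06 (adjusted p = 0.000563). The mitochondrial alanine transaminase GPT2 lay at 8.01 and 7.74 FPKM in control, 8.93 and 9.39 FPKM without glucose and 12.9 FPKM without glutamine. It was 0.45 ± 0.06 higher without glutamine than without glucose (adjusted p = 0.000727). The succinate dehydrogenase assembly factor SDHAF1, at 11.03 and 11.3, 7.93 and 8.91, and 11.3 FPKM in that order, was 0.39 ± 0.09 higher (adjusted p = 0.0115). That difference did not pass without control replicate 1 (adjusted p = 0.0526), control replicate 2 (0.0536) or glucose deprivation replicate 1. Under scaling to the total the falls of LDHB and SLC16A1 without glutamine (-0.40 and -0.44) and the direct difference of SLC25A13 (-0.31) did not pass.

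**Figure D5:**
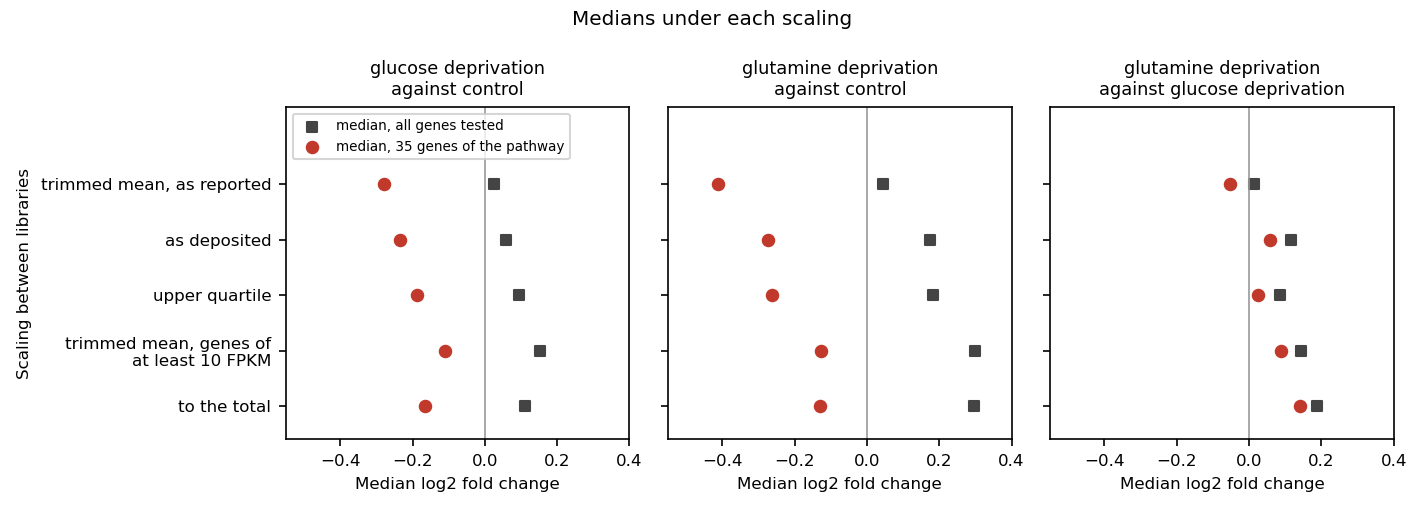
Median log2 fold change of the 35 genes (red circles) and of all genes tested (grey squares) under 5 scalings of the libraries, for each comparison. Both medians move with the scaling, and against control the median of the 35 genes stays below that of all genes, at -0.28 against 0.02 without glucose and -0.41 against 0.04 without glutamine in the top line. The gap between the medians could hardly change, since a scaling factor divides every gene of a library alike.

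Across the scalings the share of calls that were higher moved with the shift of all genes. Without glucose 48.4% of the genes called were higher with the scaling used here, against 60.0% with upper-quartile scaling and 68.1% when scaled to the total. Without glutamine the shares were 48.3%, 68.3% and 91.1%, and in the direct comparison 50.4%, 62.6% and 85.4%. Leaving out control replicate 1 or 2 lowered the count of all genes called, which was 9071 without glucose and 8474 without glutamine with all 5 libraries. The count of genes of the set called lower fell by less. Abundant genes that kept their call were not counted, so the set cannot be called steadier than genes of like level.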

How the data were processed

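Per the labels' protocols, ribosomal RNA was removed from total RNA and libraries were sequenced from both ends with 150 bases a read, and the submitters' processing notes name HISAT2 2.0.5, StringTie and hg38. The authors deposited values that were read here as FPKM, a unit inferred from the values because no header names it. The glutamine table has 1 value column headed as glucose deprivation replicate 2, which could be mapped to no sample and was not used. This left 5 of 6 labelled libraries. Their depth was inferred from whole-read steps of 3991 to 4396 single-exon genes a library. At the inferred depths 95.1% to 95.7% of these were within 0.05 reads of a whole number.

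FPKM were divided by trimmed-mean factors of 0.960 and 0.971 (control), 1.01 and 0.979 (glucose deprivation) and 1.08 (glutamine deprivation), trimming 30% of ratios and 5% of abundances. Genes that reached 1 FPKM in any library, 16598 in all, were tested on log2(FPKM + 1), a pseudocount of 1, with limma 3.58.1 in R 4.3.3, two-sided, in a fit of all 5 libraries. With 2 residual degrees of freedom, the spread of the single glutamine-deprived library is taken to be that of the other groups. Variances were moderated over inferred reads (mean FPKM times exon length in GENCODE 29, found for 56586 of the gene names), and p-values were adjusted by Benjamini-Hochberg. The fitting script was tested on simulated data.

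The genes were taken by symbol, not by value, but the set, the lists and the markers were drawn up with earlier results of these data known. Library values were given for the 10 largest changes called in each comparison and for their paralogs, and of other pathway genes for the 5 largest and for PDP2. A further pathway gene is not reported here. Alternatives were other scalings, pseudocount 0.1, other filters, another variance trend, limma's robust option, only the groups compared, a replicate block and leaving out each library. Promoters came from RefSeq.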

Additional observations from a re-analysis of the deposited data

Results flagged for a closer look

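The response of SUCLG2, the GDP-specific subunit of succinyl-CoA ligase, differed between the deprivations by a direct test. Its log2 difference of glutamine over glucose deprivation was -0.81 ± 0.07 (limma adjusted p = 0.000201), with 20.9 and 19.9 FPKM without glucose, 11.2 FPKM without glutamine and 14.2 and 15.9 FPKM in control. It was the one gene of the set called higher in one deprivation and lower in the other. That rise did not pass with no filter on low values, and that fall did not pass in 3 of 15 alternatives. The glutamine value rests on 1 library.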

How the results depend on the processing

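Of the genes of the set called lower without glucose, 7 of 24 passed in every alternative, and of those called lower without glutamine 1 of 23 (14 in all but scaling to the total). Without glucose the set had 7 genes higher under upper-quartile scaling and 9 under trimmed-mean scaling over genes of at least 10 FPKM, an alternative chosen after seeing the data, and 7 lower under scaling to the total, where 5495 genes were called in all. Without glutamine it had 8 higher on the values as deposited, 10 under upper-quartile scaling, 5 under scaling to the total, 13 under the scaling over abundant genes and 1 with no filter on low values, with 1 lower under scaling to the total and 14 under the scaling over abundant genes. In the direct comparison 7 were lower on the values as deposited, 7 under upper-quartile scaling, 2 under scaling to the total, 7 with no filter and 6 under the scaling over abundant genes, and 3 were higher under scaling to the total (4287 genes called), 5 with no filter, 5 with only the 2 groups compared and 15 under the scaling over abundant genes. Under the scaling over abundant genes 69.0%, 82.2% and 71.7% of calls were higher in the 3 comparisons, and on the values as deposited 54.2%, 67.5% and 68.3%.

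SUCLA2 without glucose changed sign under the scaling over abundant genes (0.025). Without glutamine, SDHC gave 0.014 on the values as deposited, 0.026 under upper-quartile scaling, 0.16 under scaling to the total and 0.17 under the scaling over abundant genes. In the latter pair of scalings ACLY gave 0.13 and 0.14 and GOT2 0.091 and 0.095. Under the scaling over abundant genes SDHC and ACLY were called higher, opposite to their calls with the scaling used here, and GOT2 did not pass. In the direct comparison DLD gave 0.044 and SUCLG1 0.015 under scaling to the total. The cause was not tested, beyond the shift of all genes given with the results. Leaving out 1 library gave 5629 to 9049 genes called without glucose, 5501 to 8439 without glutamine with 1 to 3 genes of the set higher, and 5 to 7 higher and 7 to 9 lower in the direct comparison. Leaving out the glutamine library leaves no glutamine comparison.

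Number 1 was shared by all 3 groups and number 2 by control and glucose deprivation. Deviations from the group mean, which the lone glutamine library cannot give, were compared in the other groups. Same-numbered libraries did not deviate together there (r = -0.02 across genes), and the samples share only a number. With the replicate block 8816 genes were called without glucose, 7545 without glutamine and 6340 in the direct comparison, with 4 higher and 23 lower, 2 and 22, and 6 and 8 genes of the set. Depth limits the genes near 1 FPKM, and ME3 could not be compared.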
